A study of Rattus norvegicus with 18 samples.

Results

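The genes described here encode structural components of basement membranes. They are the collagen IV chains Col4a1 (ENSMUSG00000031502), Col4a2 (ENSMUSG00000031503), Col4a3 (ENSMUSG00000079465) and Col4a4 (ENSMUSG00000067158), and the laminin chains Lama5 (ENSMUSG00000015647), Lamb2 (ENSMUSG00000052911) and Lamc1 (ENSMUSG00000026478). The others are the linker Nid1 (nidogen, ENSMUSG00000005397) and the heparan sulphate proteoglycans Hspg2 (perlecan, ENSMUSG00000028763) and Agrn (agrin, ENSMUSG00000041936). They were chosen by name as 10 mouse Ensembl gene identifiers among the 55335 of the deposited count table. The table holds identifiers only, and the symbols are those paired with the identifiers in the selection rule. All 10 had counts in every library (238 to 15797 per gene and library), and all 10 were among the 19233 identifiers that passed the filter on low counts.

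Polyadenylated RNA of kidney was sequenced in 18 libraries from animals labelled Rattus norvegicus, 6 per group. The treated animals (Treat) were diabetic nephropathy animals that received TSK, an agent named only by this abbreviation, orally at 500 mg/kg per day over 4 weeks. The diabetic nephropathy animals (DN) had a high-fat diet and an STZ injection, which the treated animals had as well, and the control animals (Ctrl) had ordinary feed and were gavaged with solvent. The sources used here do not give strain, sex or age, nor whether the DN animals were gavaged. The counts carry mouse gene identifiers and the submitters' processing notes name mouse genome builds (GRCm38, mm10), against the labelled species. Levels of different genes are therefore not compared with each other, and each gene is compared with itself across groups.

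A basement membrane is a thin sheet of extracellular matrix under epithelia and around vessels, built from a laminin network and a collagen IV network that nidogen and the heparan sulphate proteoglycans link together. In the mature glomerular basement membrane the main laminin is a trimer of the Lama5, Lamb2 and Lamc1 products, and the main collagen IV combines the Col4a3 and Col4a4 products with a chain not described here. The Col4a1 and Col4a2 products form the collagen IV of most other basement membranes, including those of vessels, the mesangium and many tubules. Human mutations in COL4A3 and COL4A4 cause Alport syndrome and those in LAMB2 cause Pierson syndrome, both with glomerular disease.

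Library totals ranged from 22040987 to 35275498 counts, of which the 10 genes together took 0.1005% to 0.196%. Treated library 1 and control library 4 stood apart on the second principal component of log2 CPM (78.8 and 54.2, against -26.8 to 25.2 in the other libraries), and they held the largest shares of counts from these genes (0.185% and 0.196%). Control library 4 also sided with every DN and treated library, at least 10-fold away from the other 5 controls, for 6 identifiers, none of them described here. The same search gave 1 identifier for control library 1 and 0 for each of the others. Markers of podocytes, endothelium, mesangium, fibroblasts, tubules and immune cells were not measured, because 0 of the 55335 identifiers matched the rat gene table. Their part in the results was not tested, and the labelled tissue was not checked against its markers. In whole tissue, fewer cells of a type and less RNA per cell cannot be told apart.

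The comparison of DN with Ctrl asks how the model kidney differed from the control kidney. Of the 10 genes, 7 were lower in DN (Col4a1, Col4a2, Col4a4, Lamb2, Lamc1, Nid1 and Hspg2) and Agrn was higher, while Col4a3 and Lama5 did not pass the test. The largest falls were those of Nid1 (3.14-fold lower), Hspg2 (2.11-fold lower) and Lamc1 (1.96-fold lower). The background was high in this comparison. Of all genes tested, 32.2% were called at an adjusted p under 0.05 (15.3% lower and 16.9% higher in DN). The median log2 fold change was -0.54 over the 10 genes and 0.01 over all genes tested. For 5 of the 10 genes, 4 lower and 1 higher, no DN library entered the control range, against 16.2% of all genes (7.89% lower and 8.34% higher). Without control library 4, 7 of the 10 were still called lower and 1 higher, where 6097 of all genes were called (2793 lower and 3304 higher).

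Treat was set against DN to ask how TSK altered the model kidney. The edgeR quasi-likelihood test called 0 of the 10 genes, where it called 1.39% of all genes (0.858% lower and 0.536% higher in Treat). At an unadjusted p under 0.05 there were 4, where 16.4% of all genes were under it, with higher estimates for Lama5 and Agrn and lower ones for Col4a2 and Col4a3. DESeq2 called 2 of the 10, Lama5 and Agrn, both higher in Treat, and 4.44% of all genes with an adjusted p. Limma voom with library quality weights called Col4a3, lower in Treat, and 3.83% of all genes. For Agrn all 6 treated libraries lay above all 6 DN libraries, a separation found, upward, for 0.770% of all genes (1.80% in either direction, 1.03% downward). Under scaling by library totals alone, the median log2 fold change of all genes was 0.13, against -0.01 with TMM factors, and 84.4% of the genes called were higher in Treat, against 38.4%.

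Treat set against Ctrl shows how treated kidneys differed from control kidneys. All 10 genes were called, 8 lower and 2 higher in Treat, where 44.9% of all genes were called (21.9% lower and 23.0% higher). Lama5 and Agrn were the 2 that rose. The median log2 fold change was -0.62 over the 10 genes and 0.02 over all genes tested. The treated and control libraries did not overlap for 5 of the 10, 4 lower and 1 higher, against 24.7% of all genes (13.2% lower and 11.5% higher). Under scaling by library totals, 64.5% of all genes called were higher in Treat, against 51.2%, and Lamb2 was no longer called (adjusted p = 0.0589). This comparison and that of DN with Ctrl share the control libraries.

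**Figure D1:**
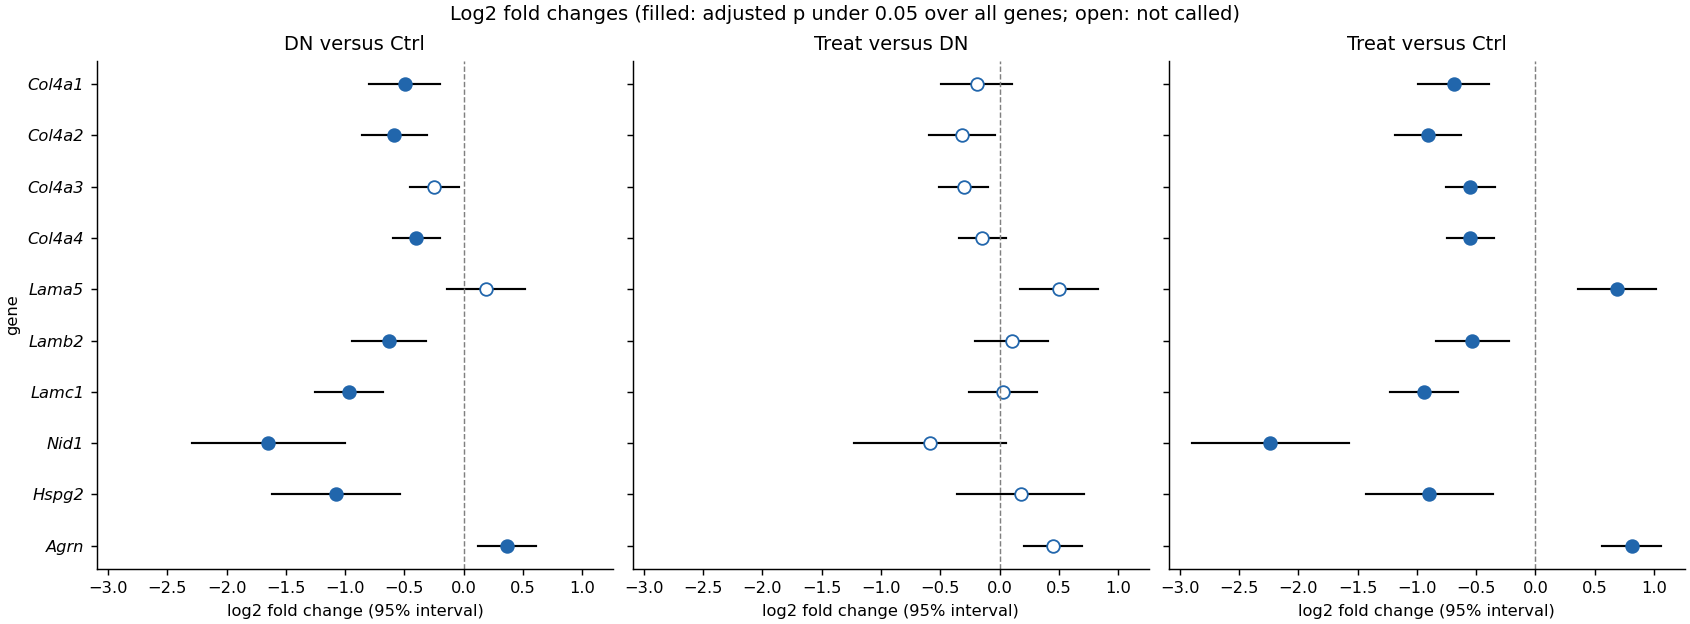
Log2 fold changes of the 10 genes with 95% intervals in the 3 comparisons, from the fit of all 18 libraries (6 per group); filled points were called at an adjusted p under 0.05 over all genes. In DN versus Ctrl 7 points are called below 0 and Agrn above it, in Treat versus DN no point is called, and in Treat versus Ctrl 8 are called below 0 and Lama5 and Agrn above it.

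Col4a1 and Col4a2 encode the chains of the widely distributed collagen IV trimer. Levels are given in CPM, counts scaled to the TMM-adjusted library total. Col4a1 was at 126 ± 13.7 CPM in Treat (lowest 105, median 128, highest 142), 144 ± 22.7 CPM in DN (116, 149 and 173) and 203 ± 52.1 CPM in Ctrl (146, 190 and 297; SD, n = 6 each). Control library 4 was the highest of all 18. The treated libraries all lay below the control libraries, while DN and control libraries overlapped. Col4a1 was lower in DN than in Ctrl by a log2 fold change of -0.50 (SE 0.14, adjusted p = 0.0126 by edgeR, as for all adjusted p-values of fold changes below unless another tool is named), and the log2 fold change was -0.36 without control library 4 (adjusted p = 0.0299). Without control libraries 4 and 5 the call was lost (log2 fold change -0.33, adjusted p = 0.0694). Treat was lower than Ctrl (log2 fold change -0.69, SE 0.14, adjusted p = 0.000873), and the difference of Treat from DN did not pass the test (-0.19, 95% interval -0.49 to 0.11, adjusted p = 0.541).

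Col4a2 followed the same order of groups. It was at 70.7 ± 9.42 CPM in Treat (lowest 58.7, median 71.3, highest 82.4), 88.2 ± 10.9 CPM in DN (75.3, 90.2 and 104) and 132 ± 30.3 CPM in Ctrl (96.6, 127 and 186; SD, n = 6 each). Every treated library lay below every control library, and the highest DN library passed only the lowest control. The fall in DN against Ctrl was -0.59 (log2, SE 0.13, adjusted p = 0.00248) and that in Treat against Ctrl -0.90 (SE 0.13, adjusted p = 3.81e-05). Treat against DN gave -0.32 (95% interval -0.59 to -0.04, unadjusted p = 0.0260, adjusted p = 0.235), and all 6 treated libraries lay below the DN median.

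Col4a3 and Col4a4 encode chains of the glomerular collagen IV trimer. Col4a3 was at 274 ± 42.5 CPM in Treat (lowest 233, median 259, highest 354), 338 ± 15.1 CPM in DN (317, 342 and 358) and 401 ± 49.3 CPM in Ctrl (337, 391 and 473; SD, n = 6 each). Treated library 1 was the highest treated library and the only one inside the DN range. Treat was lower than Ctrl (log2 fold change -0.55, SE 0.10, adjusted p = 0.000242). DN against Ctrl gave -0.25 (SE 0.10, adjusted p = 0.0592), just past the threshold, with all 6 DN libraries below the control median. It was called by DESeq2 (adjusted p = 0.0432) and by limma voom (0.0191), as well as without treated library 1 (0.0183) or control library 1 (0.0319). Treat against DN gave -0.30 (95% interval -0.51 to -0.10, adjusted p = 0.129), and without treated library 1 Col4a3 was called lower in Treat (log2 fold change -0.39, adjusted p = 0.0176).

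Col4a4 was at 226 ± 37.2 CPM in Treat (lowest 194, median 216, highest 298), 250 ± 15.4 CPM in DN (229, 249 and 270) and 330 ± 28.7 CPM in Ctrl (294, 330 and 363; SD, n = 6 each). All 6 DN libraries lay below all 6 controls, and treated library 1 was the only treated library that reached the control range. Col4a4 was lower in DN than in Ctrl (log2 fold change -0.40, SE 0.09, adjusted p = 0.00342) and lower in Treat than in Ctrl (-0.55, SE 0.09, adjusted p = 0.000175). The Treat to DN difference was -0.15 (95% interval -0.34 to 0.05, adjusted p = 0.462).

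**Figure D2:**
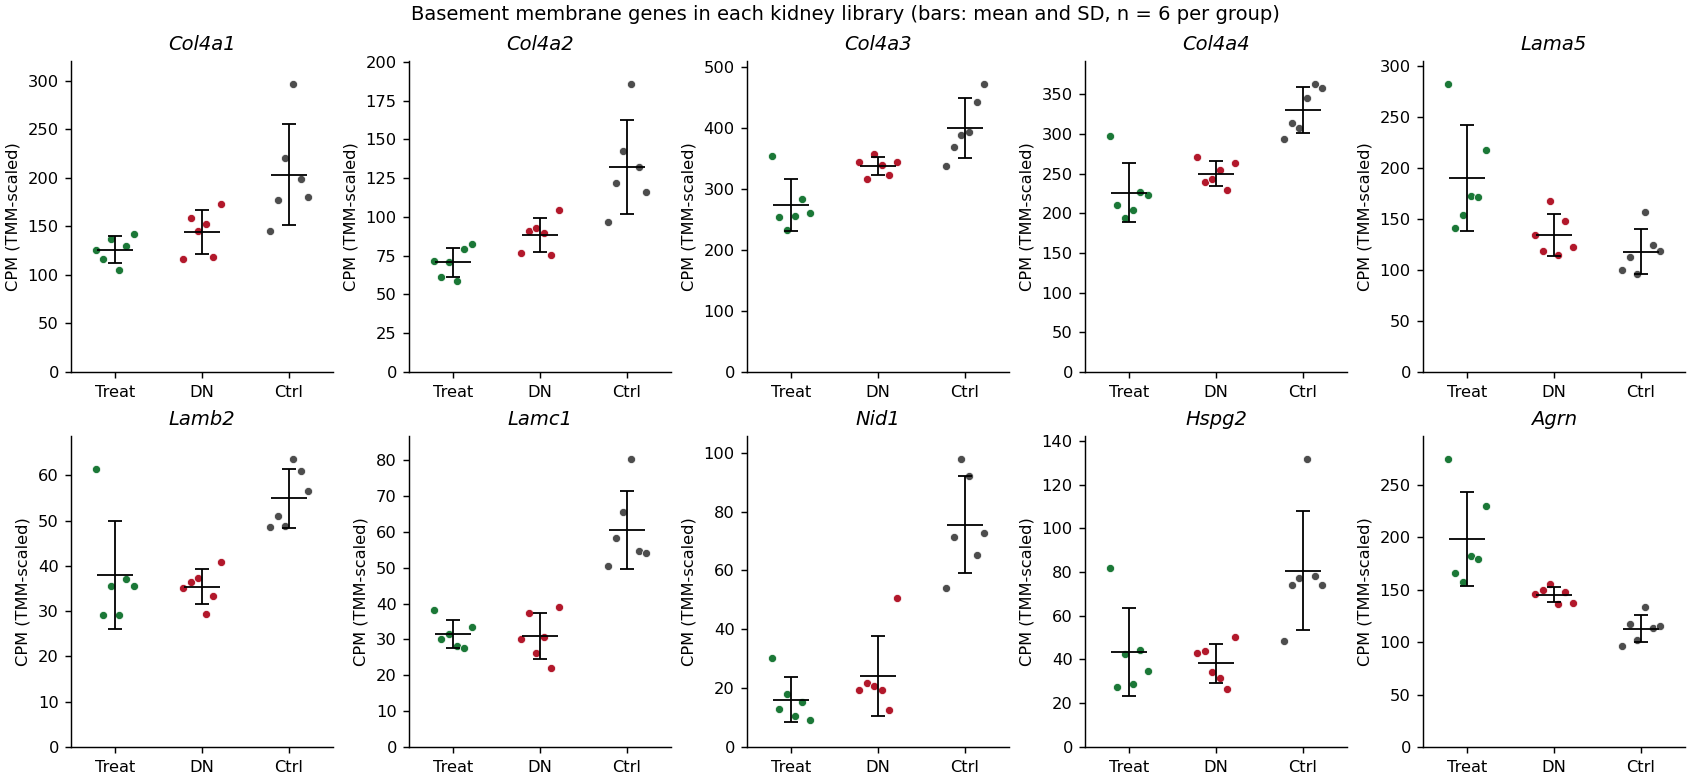
CPM (TMM-scaled, linear axis from 0) of each gene in each of the 18 libraries, with Treat, DN and Ctrl from left to right; bars give the mean and SD of 6 libraries. Col4a4, Lamb2, Lamc1 and Nid1 lie lower in every DN library than in every control, Agrn lies higher in every DN library than in every control and higher still in every treated library, and treated library 1, the first point of its group, stands high for Col4a4, Lamb2 and Hspg2.

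In the rat genome (build GRCr8, RefSeq) each of these collagen genes lies head to head with its partner. Col4a2 and Col4a1 start 76 bases apart on chromosome 16, on opposite strands, and Col4a4 and Col4a3 start 412 bases apart on chromosome 9. A minus-strand start within 500 bases upstream was found for 9.1% of the 16845 plus-strand promoter windows in the RefSeq table. The sequence between the Col4a2 and Col4a1 starts (chr16:84885521-84885596) and the 250 bases before the Col4a3 start (chr9:91323740-91323989), which reach toward the Col4a4 start, are shown because each lies between the 2 genes of a pair. Both are written on the plus strand, and capitals mark the GC box GGGCGG on either strand.
Col4a2 to Col4a1: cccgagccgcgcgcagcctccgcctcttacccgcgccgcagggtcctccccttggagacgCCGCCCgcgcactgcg
Col4a4 to Col4a3: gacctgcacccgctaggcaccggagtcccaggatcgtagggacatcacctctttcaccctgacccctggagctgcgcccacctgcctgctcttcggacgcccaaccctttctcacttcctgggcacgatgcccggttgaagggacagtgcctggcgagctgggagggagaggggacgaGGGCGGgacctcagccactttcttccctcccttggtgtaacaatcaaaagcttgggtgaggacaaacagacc
Each stretch holds 1 GC box, and neither holds CCAAT, CCCTCCCC or TATAAA on either strand. The first is 78.9% G and C and the second 62%.

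Promoter windows of 300 bases (250 before and 50 after the start) were found by symbol for 9 of the 10 genes, all but Lamb2. GGGCGG was in 7 of the 9 windows (all but Col4a4 and Agrn), against 33.1% of the 33469 windows in the table. CCAAT was in 3 (Col4a1, Col4a2 and Nid1), against 37.5%, CCCTCCCC in 4 (Col4a1, Col4a2, Lama5 and Nid1), against 10.5%, and TATAAA in 0, against 14.2%. Both strands were searched, and the Col4a1 and Col4a2 windows share 176 bases, so that their matches are in part the same. G and C made up 60% (Agrn) to 75% (Col4a1) of the windows, against a median of 51.7% over all windows, and GGGCGG and CCCTCCCC are themselves rich in them. These windows are of the rat genome, whereas the counts are of mouse identifiers.

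The partners of each head-to-head pair varied together from animal to animal within groups. For each gene the deviations of log2 CPM from the group means were correlated over the 18 libraries. Col4a1 and Col4a2 had a Pearson r of 0.960 and a Spearman rho of 0.917, each with a permutation p of 1e-05, the smallest that 100000 permutations within groups can give (adjusted p = 0.000225 and 0.00045 over 45 pairs). Among 19232 genes Col4a2 was the one most alike to Col4a1, and Col4a1 the one most alike to Col4a2. With the 2 libraries farthest from the median left out, r was 0.915, and within Treat, DN and Ctrl alone it was 0.90, 0.959 and 0.994 (n = 6 each).

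Col4a3 and Col4a4 had r = 0.904 (permutation p = 4e-05, adjusted p = 0.0006) and rho = 0.860 (permutation p = 7e-05, adjusted p = 0.0012), and each was the gene most alike to the other among 19232. Within DN alone r was 0.552, against 0.982 within Treat and 0.898 within Ctrl, and without the 2 farthest libraries it was 0.825. Without treated library 1 and control library 4, r was 0.935 for Col4a1 with Col4a2 and 0.856 for Col4a3 with Col4a4, which then held ranks 1 and 2. Across the pairs the relation was weaker, with r of 0.210 (Col4a1 and Col4a4), 0.215 (Col4a2 and Col4a3) and 0.290 (Col4a2 and Col4a4). Col4a1 and Col4a3 had r = 0.130 (permutation p = 0.645, adjusted p = 0.645) and rho = 0.146 (permutation p = 0.582, adjusted p = 0.654). For Col4a1 and Col4a3 r was -0.03 without the 2 farthest libraries, 0.267 without treated library 1 and control library 4, and 0.386 with library totals. For Col4a2 and Col4a4 the last 2 settings gave 0.399 and 0.521.

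**Figure D3:**
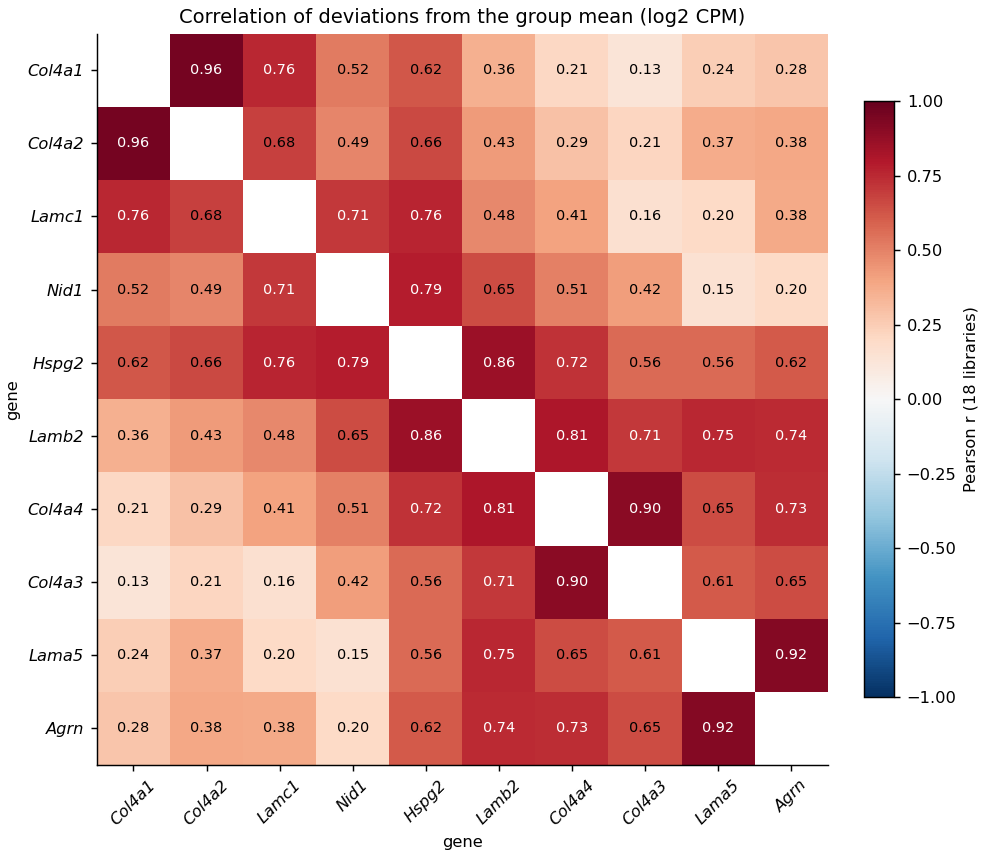
Pearson r between the deviations of log2 CPM from the group mean for each pair of the 10 genes (18 libraries, 6 per group; red above 0, blue below). The highest values are those of Col4a1 with Col4a2 (0.960), Lama5 with Agrn (0.917) and Col4a3 with Col4a4 (0.904), and Col4a1 with Col4a3 is the lowest (0.130).

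All 45 pairs of the 10 genes had r above 0, with a median of 0.565, and 25 pairs had an adjusted p under 0.05. The same count was not made for pairs of other genes. At r = 0.563 with Hspg2, near that median, Lama5 ranked 1679 of 19232 genes in likeness to Hspg2. The values of a library share its depth and scaling factor, and treated library 1 and control library 4 were high for several of the genes at once. Without those 2 libraries, r between Lama5 and Lamc1 was -0.37. Lama5 and Agrn, which lie on chromosomes 3 and 5 of the rat genome, had r = 0.917 (permutation p = 1e-05, adjusted p = 0.000225) and rho = 0.882 (permutation p = 8e-05, adjusted p = 0.0012). Agrn ranked 3 of 19232 genes in likeness to Lama5, and r was 0.837 without the 2 farthest libraries. Without treated library 1 and control library 4 the rank of Agrn was 30 of 19337, at r = 0.846. Of the 10 genes, Lamb2 was the closest to Hspg2 (r = 0.856, rho = 0.796, permutation p = 0.0001 and 0.0002, adjusted p = 0.0009 and 0.0018), with r = 0.748 without the 2 farthest libraries. Among all 19232 genes Lamb2 ranked 84 for Hspg2, and 235 of 19337 (r = 0.720) without treated library 1 and control library 4. Of the laminin chains, Lama5 and Lamb2 had r = 0.754 (permutation p = 0.00236, adjusted p = 0.0118) and rho = 0.653 (adjusted p = 0.0295). Lamb2 and Lamc1 had r = 0.482 (permutation p = 0.0194, adjusted p = 0.0415) and rho = 0.397 (adjusted p = 0.18). Without treated library 1 and control library 4 their r was 0.495 and 0.222 in turn. Lamc1 and Lama5, chains of the same trimer, had r = 0.196 (permutation p = 0.414, adjusted p = 0.465) and rho = 0.001 (permutation p = 1), and r was -0.33 without the 2 farthest libraries. The pooled value covers unlike groups, since r was 0.791 within Treat, -0.72 within DN and 0.603 within Ctrl (n = 6 each). Whether these differ was not tested.

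Of the laminin chains, Lamb2 and Lamc1 were lower than in Ctrl in both DN and Treat, whereas Lama5 was higher in Treat. Lama5, the alpha chain, was at 190 ± 52.1 CPM in Treat (lowest 142, median 172, highest 283), 134 ± 20.3 CPM in DN (115, 128 and 168) and 118 ± 21.9 CPM in Ctrl (96.1, 116 and 157; SD, n = 6 each). Treated library 1 was the highest and control library 4 the highest control, and the groups overlapped in every comparison, Treat with Ctrl included. Lama5 was higher in Treat than in Ctrl (log2 fold change 0.69, SE 0.16, adjusted p = 0.00185). All 6 treated libraries lay above the control median. DN against Ctrl gave 0.19 (95% interval -0.14 to 0.52, adjusted p = 0.379). Treat against DN gave 0.50 (95% interval 0.17 to 0.83, unadjusted p = 0.0050, adjusted p = 0.118) with TMM scaling, 0.65 with library totals (adjusted p = 0.0464), 0.51 by DESeq2 (adjusted p = 0.0445) and 0.35 without treated library 1 (adjusted p = 0.199).

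Lamb2, the beta chain, was at 37.9 ± 11.96 CPM in Treat (lowest 29.1, median 35.5, highest 61.3), 35.4 ± 3.93 CPM in DN (29.3, 35.7 and 40.9) and 54.9 ± 6.45 CPM in Ctrl (48.5, 53.7 and 63.6; SD, n = 6 each). Every DN library lay below every control, and treated library 1, at 61.3 CPM, was the only treated library above the lowest control. Lamb2 was lower in DN than in Ctrl (log2 fold change -0.63, SE 0.15, adjusted p = 0.00339) and lower in Treat than in Ctrl (-0.53, SE 0.15, adjusted p = 0.00719, and -0.72 without treated library 1). Between Treat and DN the estimate was 0.10 (95% interval -0.21 to 0.41, adjusted p = 0.788), and -0.09 without treated library 1.

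Lamc1, the gamma chain, was at 31.5 ± 3.95 CPM in Treat (lowest 27.5, median 30.8, highest 38.2), 30.9 ± 6.43 CPM in DN (22.1, 30.3 and 38.9) and 60.5 ± 10.95 CPM in Ctrl (50.4, 56.4 and 80.3; SD, n = 6 each). All treated and all DN libraries lay below all controls. The log2 fold change was -0.97 in DN against Ctrl (SE 0.14, adjusted p = 4.07e-05) and -0.94 in Treat against Ctrl (SE 0.14, adjusted p = 3.46e-05). Treat and DN were close, with a difference of 0.03 (95% interval -0.26 to 0.31, adjusted p = 0.946).

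Nid1, which bridges laminin and collagen IV, fell the most of the 10 genes in both comparisons with Ctrl. It was at 16.0 ± 7.64 CPM in Treat (lowest 9.12, median 14.2, highest 30.1), 24.1 ± 13.5 CPM in DN (12.4, 20.1 and 50.7) and 75.5 ± 16.5 CPM in Ctrl (54.1, 72.1 and 97.8; SD, n = 6 each). All DN and treated libraries lay below all controls, and DN library 6 stood at 50.7 CPM, far above the other 5 DN libraries (12.4 to 21.9). Nid1 was 3.14-fold lower in DN than in Ctrl (log2 fold change -1.65, SE 0.31, adjusted p = 0.000567), and the log2 fold change was -2.01 without DN library 6 (adjusted p = 2.47e-05). In Treat it was 4.71-fold lower than in Ctrl (log2 fold change -2.24, SE 0.31, adjusted p = 2.56e-05). Relative to DN, Treat stood at -0.59 (95% interval -1.23 to 0.05, adjusted p = 0.350), -0.23 without DN library 6 and -0.87 without treated library 1. Among all genes tested, 1.51% had a lower log2 fold change than Nid1 in DN against Ctrl and 0.972% in Treat against Ctrl.

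The proteoglycans moved in opposite directions. Hspg2, whose product perlecan is found in most basement membranes and in vessel walls, was at 43.3 ± 20.2 CPM in Treat (lowest 27.6, median 38.5, highest 82.0), 38.2 ± 8.93 CPM in DN (26.3, 38.6 and 50.2) and 80.6 ± 27.3 CPM in Ctrl (48.4, 75.8 and 132; SD, n = 6 each). Treated library 1 and control library 4 gave the highest values of their groups, and DN library 6 passed control library 1. The log2 fold change was -1.08 in DN against Ctrl (SE 0.26, adjusted p = 0.00390), and -0.88 without control library 4 (adjusted p = 0.0101). In Treat against Ctrl it was -0.90 (SE 0.26, adjusted p = 0.00852). Without control libraries 4 and 5 the log2 fold change of Treat against Ctrl was -0.66 and no longer called (adjusted p = 0.0508). The estimate for Treat against DN was 0.18 (95% interval -0.36 to 0.71, adjusted p = 0.778), and -0.10 without treated library 1.

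Agrn, whose product agrin is the main heparan sulphate proteoglycan of the glomerular basement membrane, was at 198 ± 45.04 CPM in Treat (lowest 158, median 181, highest 274), 145 ± 7.54 CPM in DN (136, 147 and 156) and 113 ± 12.8 CPM in Ctrl (96.4, 115 and 133; SD, n = 6 each). In TMM-scaled CPM the groups did not overlap: each DN library lay above each control, and each treated library above each DN library. The gap between DN and Ctrl was narrow and did not hold with library totals. DN library 5 held 3749 of 28701967 counts, a smaller share than the 3647 of 26312358 in control library 4. Agrn was higher in Treat than in Ctrl (log2 fold change 0.81, SE 0.12, adjusted p = 3.54e-05) and higher in DN than in Ctrl (0.36, SE 0.12, adjusted p = 0.0240). The DN call was lost without DN library 3 (adjusted p = 0.0509), control library 1 (0.0563) or control library 3 (0.0545), and under scaling by library totals (0.0742). Treat against DN gave 0.45 (95% interval 0.20 to 0.69, unadjusted p = 0.00121, adjusted p = 0.0632). Its adjusted p in that comparison ranged from 0.0113 (DESeq2) to 0.151 over 28 alternative settings and was under the threshold in 3 of them.

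Ratios of counts within a library do not depend on how libraries are scaled, and they show how unequally the components changed. A ratio carries the lengths of both genes, so only its change between groups can be read. Ratios without overlap between groups were common among the genes described here. Of all 45 pairs of these genes, 20 (44.4%) had no overlap between DN and Ctrl libraries. The number was 24 (53.3%) between Treat and Ctrl and 6 (13.3%) between Treat and DN. The share among pairs of other genes was not computed, so these counts cannot show whether the genes described here are unusual. The ratios below were chosen from these pairs for description. There were 5.98 ± 1.02 Lama5 counts per Lamc1 count in Treat (4.71 to 7.39), 4.60 ± 1.58 in DN (3.15 to 6.71) and 1.97 ± 0.281 in Ctrl (1.47 to 2.28; SD, n = 6 each). Every DN and treated library lay above every control. The Lama5 to Lamb2 ratio was 5.09 ± 0.753 in Treat, 3.82 ± 0.609 in DN and 2.14 ± 0.180 in Ctrl. In treated library 1 it was 4.61, inside the range of the other treated libraries, and in control library 4 it was 2.47, the highest of the controls. Lamb2 counts per Lamc1 count were 1.19 ± 0.241 in Treat (0.968 to 1.60) and 1.18 ± 0.233 in DN (0.958 to 1.51). They were 0.923 ± 0.1455 in Ctrl (0.743 to 1.12), and the groups overlapped.

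For the proteoglycans, Agrn counts per Hspg2 count were 5.02 ± 1.48 in Treat (3.35 to 6.66), 3.99 ± 1.03 in DN (2.74 to 5.60) and 1.49 ± 0.325 in Ctrl (1.01 to 1.99; SD, n = 6 each), so that here too all DN and treated libraries lay above all controls. Lamc1 counts per Nid1 count were 2.25 ± 0.855 in Treat, 1.44 ± 0.377 in DN and 0.812 ± 0.0933 in Ctrl. DN library 6 alone, at 0.767, fell inside the control range of 0.670 to 0.932.

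Within the collagen pairs the ratios moved less. Col4a1 counts per Col4a2 count were 1.79 ± 0.107 in Treat (1.64 to 1.92), 1.63 ± 0.0911 in DN (1.52 to 1.75) and 1.53 ± 0.0510 in Ctrl (1.45 to 1.60; SD, n = 6 each), with all treated libraries above all controls. Col4a3 counts per Col4a4 count were 1.22 ± 0.0355 in Treat (1.17 to 1.26), 1.35 ± 0.0723 in DN (1.27 to 1.47) and 1.21 ± 0.0712 in Ctrl (1.14 to 1.32). All treated libraries lay below all DN libraries for this ratio, and the DN and control libraries overlapped.

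**Figure D4:**
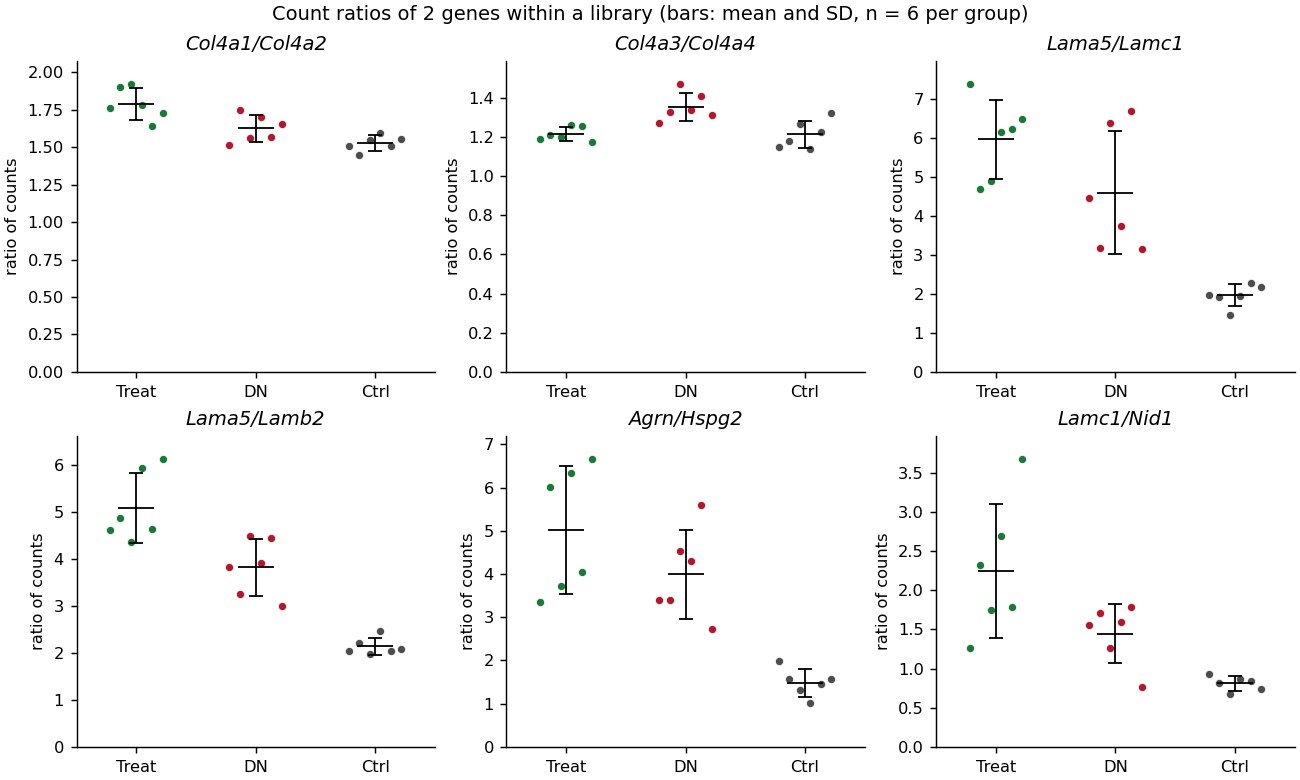
Ratio of the counts of 2 genes within each library (linear axes from 0), with Treat, DN and Ctrl from left to right; bars give the mean and SD of 6 libraries. The Lama5/Lamc1, Lama5/Lamb2 and Agrn/Hspg2 ratios lie higher in every DN and treated library than in every control, and the Lamc1/Nid1 ratio does so except in DN library 6, while Col4a1/Col4a2 and Col4a3/Col4a4 stay between 1.14 and 1.92 in all libraries. Of all 45 pairs of the genes, 20 had no overlap between DN and Ctrl and 24 had none between Treat and Ctrl. The share among pairs of other genes was not computed.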

How the data were processed

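The authors deposited 1 table of raw counts per mouse Ensembl gene identifier, with 1 column per library and no normalization. Builds GRCm38 and mm10 are named in the submitters' processing notes, while the sources used here name no aligner, counter, annotation release or strand setting. Each column was assigned through the library name in its sample's description. Per the rat annotation, Col4a1 overlaps 2 other genes and Col4a4 and Lamc1 overlap 1 each. The counts are of mouse identifiers, and overlaps in the mouse annotation were not looked up. Whether overlapping genes share reads in these counts is therefore not known, nor is the strand setting. Overlaps of Lamb2 were not looked up. Analysis used R 4.3.3 and edgeR 4.0.16: filterByExpr, TMM factors, 1 fit of all 18 libraries with 1 coefficient per group, the quasi-likelihood F-test, and Benjamini-Hochberg adjustment over all 19233 genes tested, with a call at an adjusted p under 0.05. Standard errors and 95% intervals came from the F statistics. Log2 CPM used a prior count of 2. Correlations were of deviations from group means, with two-sided permutations within groups. Alternatives used DESeq2 1.42.0, limma 3.58.1 (voom), other scalings, filters and sample sets, and the replicate number as a block. Depth makes counting error small beside the spread between animals (common coefficient of variation 0.273). Within a group, no library looked like a second copy of another (counts of replicates gave a chi-square of at least 11.8 per degree of freedom). Libraries of different groups were not compared in this way. The genes and lists were chosen with earlier results of these data known. All 10 genes are named by rule. The 10 gene lists (118 symbols) were not used, since their symbols were not paired with identifiers. Ratios and promoter motifs were chosen for description and were not tested.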

Additional observations from a re-analysis of the deposited data

Results flagged for a closer look

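In the 30 combinations of gene and group, 5 held a library whose gap to its nearest neighbour exceeded Dixon's critical value for 6 samples (0.625 of the range). Chance flags about 1 in 20 groups. Of these, 3 were treated library 1, with 298 CPM of Col4a4 (next highest 226), 61.3 CPM of Lamb2 (next 37.1) and 82.0 CPM of Hspg2 (next 44.4). Control library 4 was flagged at 132 CPM of Hspg2 (next 78.0), and DN library 6 at 50.7 CPM of Nid1 (next 21.9).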

How the results depend on the processing

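Across 28 alternatives, the estimates of all 10 genes kept their direction in both comparisons with Ctrl. Calls differed in 10 of 280 gene-by-alternative values in DN versus Ctrl (Col4a3, Agrn and Col4a1), in 2 of 280 in Treat versus Ctrl (Lamb2 and Hspg2) and in 8 of 280 in Treat versus DN. The 10 genes gave 7 to 9 calls in DN versus Ctrl, 0 to 1 in Treat versus DN and 10 in Treat versus Ctrl with any 1 library left out. All genes gave 5103 to 6936 calls in DN versus Ctrl and 7909 to 8929 in Treat versus Ctrl in the same refits. In Treat versus DN, 2 of the 10 genes were called with library totals without scaling factors and 2 by DESeq2. Limma voom called 1, and 2 were called without control library 4 and treated library 1 together. Over all genes, that comparison gave 268 calls in the main fit, 775 with library totals, 119 without a filter, 116 with only the 12 libraries compared, 837 by DESeq2, 737 by voom, 593 without those 2 libraries, and 97 to 446 with any 1 library left out. That count moved by over 1.5 times without treated library 1 (446), 3 (119) or 6 (160), DN library 1 (152), 2 (119), 4 (97) or 6 (125), or control library 6 (164). Signs turned in 11 values of Treat versus DN, none of them called: Lamb2 (-0.0298 by voom, -0.0713 without those 2 libraries, -0.0895 to 0.17 with 1 library left out), Lamc1 (-0.0779, -0.0158, and -0.0542 to 0.10) and Hspg2 (-0.0894, -0.0845, and -0.10 to 0.28). The cause was not tested. With the replicate block, 117 genes were called in Treat versus DN, and none of the calls of the 10 genes changed. No label states that equal numbers pair the samples, and 2 of 18 same-numbered pairs had a correlation of deviations over 0.1 (-0.19 to 0.19). Each treated library was also matched to the DN and to the control libraries, and each DN library to the controls. In 2 of these 18 matches the highest correlation was with the same number. Correlations within the 3 closest gene pairs were recomputed without those 2 libraries and with library totals, alternatives chosen after seeing the data, and remained at 0.846 to 0.970.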
